A study of Mus musculus with 2 samples.

Results

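Actin filaments of striated muscle are held at a fixed length by proteins that sit on their ends and by proteins that remove subunits, and 10 genes for such proteins were described here. They were chosen by gene name and role: the pointed end genes Tmod1, Tmod4, Lmod2 and Lmod3, the barbed end genes Capza1, Capza2 and Capzb, and the turnover genes Cfl1, Cfl2 and Cap2. All 10 were among the 13844 annotated genes with a read in replicate 1 and the 13792 in replicate 2 (15371 in either). The tissue was gastrocnemius, the large calf muscle, from female B6CASTF1/J mice, first-generation hybrids of B6 and Cast strains, aged 2 months, with no treatment named. The 2 long-read libraries, each from 2 µg of RNA, were labelled as animal 3 (replicate 1) and animal 4 (replicate 2) and form 1 group, although the labels give both the same donor identifier. Replicate 1 held 1349298 long reads and replicate 2 held 1359923 of all kinds, and 2819 and 2725 of these came from the 10 genes.

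The thin filament has a fast-growing barbed end anchored in the Z-disc and a slow-growing pointed end near the middle of the sarcomere. The heterodimer CapZ closes the barbed end, tropomodulins cap the pointed end, and leiomodins, their relatives, bind there and favour filament assembly. Cofilins sever filaments and, together with cyclase-associated proteins, return subunits to the monomer pool.

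CapZβ comes in muscle and general forms that differ only in their C-terminal ends, and the coding ends of both are shown because the reads of Capzb divide between them. The first is read from an alternative exon at chr4:139288861-139288973 (mm10, plus strand, exon 9 of 10 of Capzb-203, 113 bases). The other starts in the last exon, where reading continues when that exon is left out, as in Capzb-204. Both run 5′ to 3′ from the splice acceptor, with the stop codon in capitals.
Capzb-203, chr4:139288861-139288963: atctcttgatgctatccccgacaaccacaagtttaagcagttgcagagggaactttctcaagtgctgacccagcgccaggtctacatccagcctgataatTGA
Capzb-204, chr4:139291003-139291090: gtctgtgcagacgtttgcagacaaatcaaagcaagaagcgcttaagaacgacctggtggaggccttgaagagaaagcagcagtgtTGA
The 731 coding bases before these ends are shared. Capzb-203 encodes 277 residues and is the β1 form, known from the Z-disc, and Capzb-204 encodes 272 and is the β2 form of most other tissues.

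Capza2, Capzb, Tmod4 and Cfl2 were the highest of the 10 genes in both libraries, and Capza1 the lowest, with or without division by transcript length. Levels are given as CPM, the reads per 1e6 library reads, and then per kilobase of the most-read annotated transcript. A long read is counted once whatever the transcript's length, so the division raises short transcripts and changes the order. By CPM alone, Capza2 (522 and 513) was followed by Cfl2 (426 and 432), Capzb (321 and 318) and Tmod4 (231 and 230.2). Capza2 stood at 206 CPM per kilobase in replicate 1 and 202 in replicate 2, Capzb at 189 and 187, and Tmod4 at 186 and 185. Counting intervals (95% Wilson) of Capza2 and Capzb, and of Capzb and Tmod4, overlapped in both libraries, so the order of these 3 was not resolved. On the per-kilobase scale Cfl2 followed at 145 and 147, below Tmod4 with intervals apart in both libraries, whereas by CPM it lay above Tmod4. Lmod3 had 80.6 and 69.4 CPM per kilobase, Tmod1 62.2 and 48.0, and Cap2 26.7 and 33.1, each apart from the next above it in both. Lmod2, with 21.4 and 16.0, overlapped Cap2 in replicate 1 only, and it overlapped Cfl1, with 20.5 and 14.4, in both. Capza1 stood at 7.43 and 5.07, below Cfl1 with intervals apart in both libraries. These intervals, and all others here, cover counting error only.

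**Figure D1:**
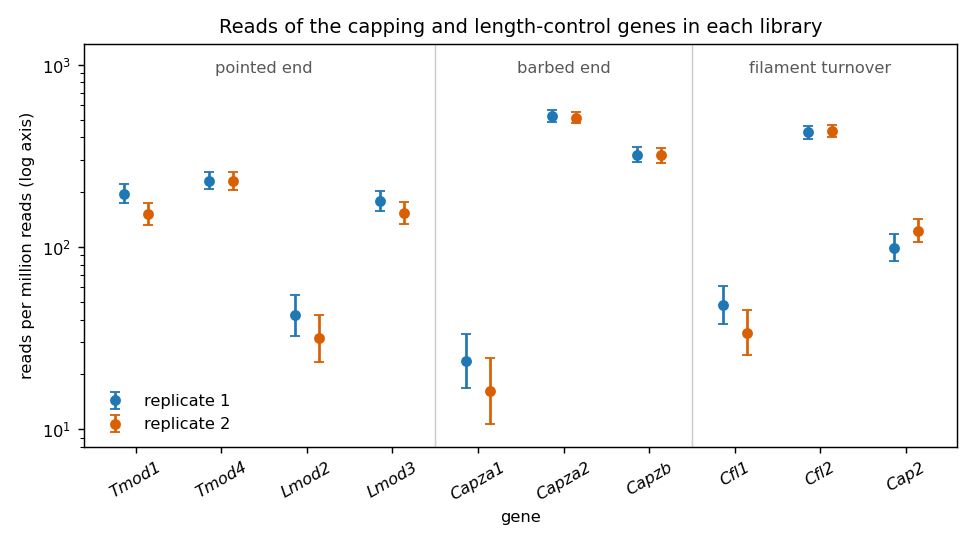
CPM (log axis) of the 10 genes in replicate 1 (blue) and replicate 2 (orange), grouped by role. Bars are 95% Wilson intervals of the counts; Tmod1 stood at 196 and 151, Capza2 at 522 and 513, and the intervals of each gene overlapped between the libraries or, for Tmod1, met at 174 after rounding.

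None of the 10 genes passed the test between the libraries at an adjusted p of 0.05, against 730 of 9341 tested genes in the whole table (7.82%). With 10 genes, 0 is near that share and does not set them apart. Each gene's reads were set against the library's other reads by Fisher's exact test, two-sided, with Benjamini-Hochberg adjustment over all 9341 genes. It compares 2 libraries of 1 group, with no replicate check. At an unadjusted p under 0.05 there was 1 of the 10, Tmod1, and 1663 of all tested genes (17.8%). By edgeR's exact test at an assumed dispersion of 0.01, 0 of the 10 passed, against 1.85% of all tested genes. The log2 ratios of replicate 2 over replicate 1 ran from -0.55 to 0.31 with a median of -0.12, and 2 were positive and 8 negative. The median over all tested genes was -0.01. The median absolute log2 ratio was 0.26 for the 10 genes and 0.35 for all tested genes.

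Marker genes of fibre and cell types were put through the same test. All 10 slow fibre markers tested were higher in replicate 2, with 1900 reads summed in replicate 1 and 12669 in replicate 2, and all 6 adipocyte markers were lower, with 1520 and 145 reads. All 6 nerve and Schwann cell markers were lower too, with 906 and 132 reads. Of 11 fast fibre markers, 4 were higher and 6 lower, with 288438 and 283457 reads, so the genes that define fast muscle were abundant in both. Of 7 smooth muscle markers 4 were lower, of 6 endothelial markers 1 was lower, of 5 fibroblast markers 1 was higher and 1 lower, and of 2 macrophage markers tested 1 was lower. Of 4 red blood cell genes tested 0 passed, and the list's summed reads were 145 and 169. Listed at 0 were Ptprc, of leukocytes, in replicate 1 and Retn, of adipocytes, and Alas2, of red blood cells, in replicate 2. No slow or fast fibre marker was at 0 in either library. Spike-in RNA took 3.64% and 1.49% of the reads. In bulk tissue, fewer cells of a type and less RNA per cell cannot be told apart.

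**Figure D2:**
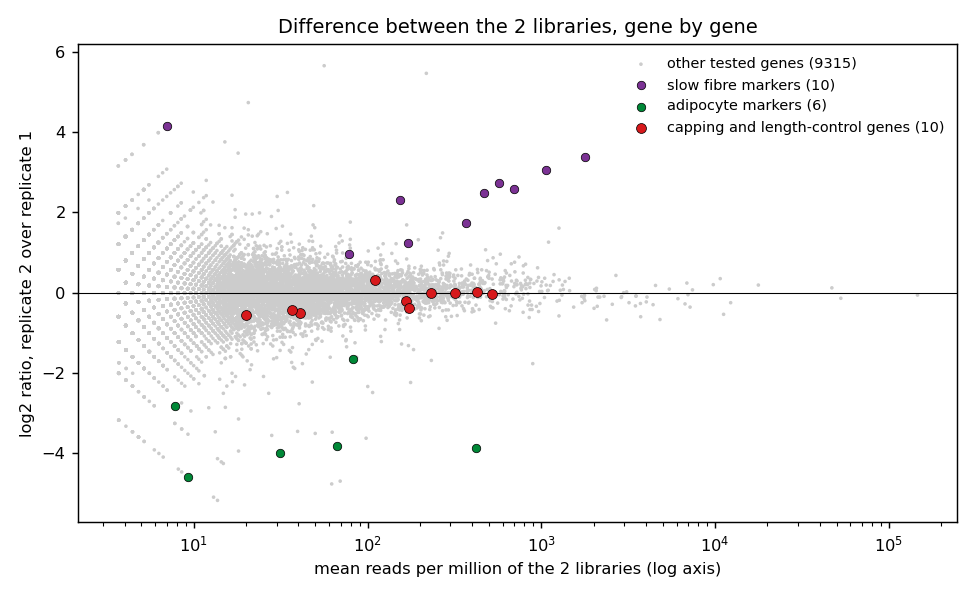
Each point is 1 gene with at least 10 reads summed; the horizontal axis is its mean CPM (log axis) and the vertical axis the log2 ratio of replicate 2 over replicate 1. The 10 genes (red) lay between -0.55 and 0.31. The slow fibre markers (purple) had a median of 2.54 and the adipocyte markers (green) one of -3.84.

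At the pointed end, Tmod4 had more reads than Tmod1, narrowly so in replicate 1, and Lmod3 held most leiomodin reads. Tmod1 (ENSMUSG00000028328.13, chr4:46038935-46116032, plus strand) encodes the tropomodulin shared by erythrocytes, heart and skeletal muscle. It had 265 reads in replicate 1 and 206 in replicate 2, or 196 and 151 CPM (174 ± 31.8, SD, n = 2). The library of replicate 1 was the higher, at a fold of 0.771 for replicate 2 over replicate 1 (95% interval 0.643 to 0.925) and an adjusted p of 0.0659 by Fisher's exact test. This gene was past the threshold, still lower in replicate 2, with genes of at least 50 reads alone (adjusted p = 0.0419) and without mitochondrial and spike-in reads (adjusted p = 0.0393), settings in which 14.1% and 7.57% of all tested genes passed, and the adjusted p was as high as 0.725 among all 8 alternatives. The slow fibre, adipocyte, nerve and spike-in values above moved between the same 2 libraries, and their part in the Tmod1 value was not tested.

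Tmod4 (ENSMUSG00000005628.12, chr3:95124476-95129209, plus strand), the tropomodulin of fast skeletal muscle, had 312 and 313 reads, or 231 and 230.2 CPM (231 ± 0.757, SD, n = 2). The values were nearly the same, with a fold of 0.995 (0.851 to 1.16, adjusted p = 1.00 by Fisher's exact test). Of the 577 reads of Tmod1 and Tmod4 in replicate 1, Tmod4 took 54.1%, and of the 519 in replicate 2 it took 60.3% (mean 57.2% ± 4.41, SD, n = 2). It had 1.18 and 1.52 times the reads of Tmod1. Per kilobase, which raises the shorter Tmod4 transcript, the ratio was 2.99 and 3.86.

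Lmod3 (ENSMUSG00000044086.8, chr6:97238534-97252759, minus strand), whose loss causes nemaline myopathy, had 241 and 209 reads, or 179 and 154 CPM (166 ± 17.6, SD, n = 2), a fold of 0.860 (0.715 to 1.04). Lmod2 (ENSMUSG00000029683.7, chr6:24597762-24605414, plus strand), the leiomodin best known from heart, had 57 and 43 reads, or 42.2 and 31.6 CPM (36.9 ± 7.51, SD, n = 2), a fold of 0.748 (0.505 to 1.11). Both were lower in replicate 2 by less than the test could call (adjusted p = 0.445 and 0.519, Fisher's exact test). Lmod3 held 80.9% (76.0 to 84.9) and 82.9% (77.8 to 87.1) of the reads of the pair.

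Each of the lists that follow holds the genes of its kind among the 10 as well. Of the 7 genes in the list of pointed end proteins, 6 were tested and 0 passed in either direction, against 7.82% of all tested genes. Their median log2 ratio was -0.36, against -0.01 over all tested genes. Tmod3, the tropomodulin of most non-muscle cells, had 29 and 23 reads, and Tmod2, of neurons, 3 and 3, too few to test. Lmod1, the leiomodin of smooth muscle, had 19 and 5 reads, a fold of 0.261 (0.101 to 0.675), with an adjusted p of 0.0502. Lmod1 also stands in the list of smooth muscle markers.

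Among nebulin and the proteins that hold it or leiomodin, 1 of 6 tested genes passed and was lower in replicate 2, as were 333 of all tested genes (3.56%). Nrap, the nebulin-related anchoring protein, had 780 and 805 reads, and Neb, nebulin itself, which runs along the thin filament, had 196 and 225. Klhl40, a Kelch protein that stabilises Lmod3 and nebulin, had 350 and 306 reads. Its relative Klhl41 had 164 and 109, a fold of 0.659 (0.518 to 0.840, adjusted p = 0.0133 by Fisher's exact test). This was the gene that passed, and under the assumed dispersion of 0.01 its adjusted p by edgeR was 0.426.

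The reads of Tmod4 divided at the start of the gene. Of 312 reads in replicate 1, Tmod4-201 held 162, and of 313 in replicate 2 it held 132, or 51.9% (46.4 to 57.4) and 42.2% (36.8 to 47.7). Tmod4-202 held 88 and 94 reads. These transcripts differ in the donor site that ends exon 1, at 95124578 in Tmod4-201 and 23 bases further on in Tmod4-202. Exon 2 begins at 95125515 and the start codon lies 40 bases inside it, so the choice does not touch the coding sequence. Of reads that show how the start of the gene is spliced, 167 of 305 and 142 of 298 used the donor of Tmod4-201, and 96 and 94 that of Tmod4-202. A further 19 and 19 kept the first intron, and 8 and 7 used the donor at 95125439 of a downstream first exon. Besides the unannotated donor described next, other donors took 6 and 8.

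An unannotated donor lies 7 bases after that of Tmod4-201. It was used by 9 of 286 spliced reads in replicate 1, 3.15% (1.66 to 5.87), and by 28 of 279 in replicate 2, with an interval of 7.04% to 14.1%. The share was higher in replicate 2 with intervals apart, at an unadjusted p of 0.00104 and an adjusted p of 0.202 by Fisher's exact test. Over the whole table, 11 of 2730 donor choices passed that test (0.403%), and 0 of the 6 in these genes. At an unadjusted p under 0.05 there were 2 of the 6, this donor and 1 in Lmod3, and 170 of all (6.23%). The share of the most-read transcript of Tmod4 differed by an unadjusted p of 0.0162 and an adjusted p of 0.352 (Fisher's exact test), in a table where 83 of 5025 genes passed (1.65%). None of the 10 genes passed. At an unadjusted p under 0.05 there was 1 of the 10, Tmod4, and 426 of the 5025 (8.48%). The coding chain of Tmod4-201, every splice junction from start to stop codon, was kept by 91.3% (87.7 to 94.0) and 90.4% (86.6 to 93.2) of all Tmod4 reads.

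Lmod3 carried an unannotated start. The annotation gives 1 transcript, Lmod3-201, with 3 exons, which matched 171 of 241 and 151 of 209 reads, or 71.0% and 72.2%. An upstream exon with its donor at 97253035, outside the annotated gene, was spliced to position 97252595 inside the annotated first exon. Among reads that used the donor of the annotated first exon, 43 of 226 (19.0%, 14.4 to 24.6) and 46 of 201 (22.9%, 17.6 to 29.2) had this upstream exon. These intervals overlapped. The start codon lies 24 bases beyond the acceptor, so the upstream exon itself leaves the coding sequence whole. Of these reads, 42 and 46 were of a model that holds all coding exons, and the 1 other read, in replicate 1, skipped the coding exon 2. The main model of this form ran 1507 and 1509 bases past the annotated 3′ end, and 47 and 46 reads lay on models that passed it. These are ends of models, and where each read ended on any Lmod3 model is not shown by the counts.

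A short unannotated intron inside the same exon was removed in 11 of 226 and 3 of 201 of these reads. Counted over reads that used the acceptor at 97252595, the shares were 11 of 55 and 3 of 50, lower in replicate 2 by an unadjusted p of 0.0451 and an adjusted p of 0.802 (Fisher's exact test). In Tmod1, 232 of 233 and 183 of 183 reads into exon 2 came from the annotated exon 1, and in Lmod2 47 of 49 and 33 of 33. Tmod1-201 held 84.9% and 87.9% of Tmod1 reads. Lmod2-201 held 82.5% and 76.7% of Lmod2 reads, and an incomplete model that lacks its first exon held 8 of 57 and 7 of 43.

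At the barbed end, CapZ reads came almost wholly from Capza2 and Capzb. Capza2 (ENSMUSG00000015733.13, chr6:17636234-17666972, plus strand), 1 of the α subunits of CapZ, had 705 and 698 reads, or 522 and 513 CPM (518 ± 6.53, SD, n = 2), a fold of 0.982 (0.885 to 1.09). Capza1 (ENSMUSG00000070372.11, chr3:104822779-104864505, minus strand), another α subunit, had 32 and 22 reads, or 23.7 and 16.2 CPM (19.9 ± 5.33, SD, n = 2), a fold of 0.682 (0.399 to 1.17). Neither fold was past the test (adjusted p = 0.969 and 0.539, Fisher's exact test). Capza2 held 95.7% (93.9 to 96.9) and 96.9% (95.4 to 98.0) of α subunit reads, and none were of Capza3. In kilobase terms its level was 27.7 and 39.9 times that of Capza1. Nearly all reads of each were of 1 transcript: Capza2-201 held 677 and 663 reads, or 96.0% and 95.0%, and Capza1-201 held 31 and 19, or 96.9% and 86.4%.

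The coding sequences of Capza1 and Capza2 are 861 bases long with the stop codon and match at 76.9% of positions, so long reads can be told apart along their whole length. The first 60 coding bases of each are shown with the differing bases in capitals.
Capza1: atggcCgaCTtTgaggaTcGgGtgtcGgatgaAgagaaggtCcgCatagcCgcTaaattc
Capza2: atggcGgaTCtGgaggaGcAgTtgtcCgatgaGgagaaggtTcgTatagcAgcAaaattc
They differ at 13 of these 60 bases. Capza1 has 3 near-identical copies elsewhere in the annotation (at least 90% identity over at least 50% of the coding sequence), which together had 3 and 2 reads, so reads between Capza1 and these copies are uncertain. No such copy of Capza2 or Capzb was found.

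Capzb (ENSMUSG00000028745.18, chr4:139192899-139291818, plus strand), the β subunit, had 433 reads in both libraries, or 321 and 318 CPM (319.7 ± 1.77, SD, n = 2), a fold of 0.992 (0.869 to 1.13, adjusted p = 1.00 by Fisher's exact test). The α subunits together had 1.70 and 1.66 times the reads of Capzb. Per kilobase the ratio was 1.13 and 1.11, but that division raises the shorter Capzb transcript, although each long read is counted once whatever its length.

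The muscle form made up most Capzb reads in both animals. Capzb-203, whose end is the first of the pair printed above, had 363 and 378 reads, or 83.8% (80.1 to 87.0) and 87.3% (83.8 to 90.1). Capzb-204 had 38 and 29, or 8.78% (6.46 to 11.8) and 6.70% (4.70 to 9.45). Counted exon by exon, whichever way a read began or ended, the alternative exon was in 389 of 427 informative reads in replicate 1 and 393 of 422 in replicate 2. That is an inclusion of 91.1% (88.0 to 93.4) and 93.1% (90.3 to 95.2), with a mean of 92.1% ± 1.43 (SD, n = 2). The difference of 2.03 percentage points had an unadjusted p of 0.309 and an adjusted p of 1.00 (Fisher's exact test), where 8 of 1973 alternative exons in the table passed (0.405%).

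This was the only exon of the 10 genes that met the rule for an alternative exon, with pooled inclusion between 5% and 95%. The other 56 internal exons of their main transcripts were included in at least 90.9% of informative reads in each library. That lowest value was exon 5 of Capza1, skipped by 0 of 31 and 2 of 22 reads. Capzb-201, a transcript with another first exon and 301 codons, had 0 full-length reads in either library. Its first junction was seen in 1 of 413 reads into exon 2 in replicate 1 and in 0 of 413 in replicate 2; a count of 0 leaves room for 0.726%.

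**Figure D3:**
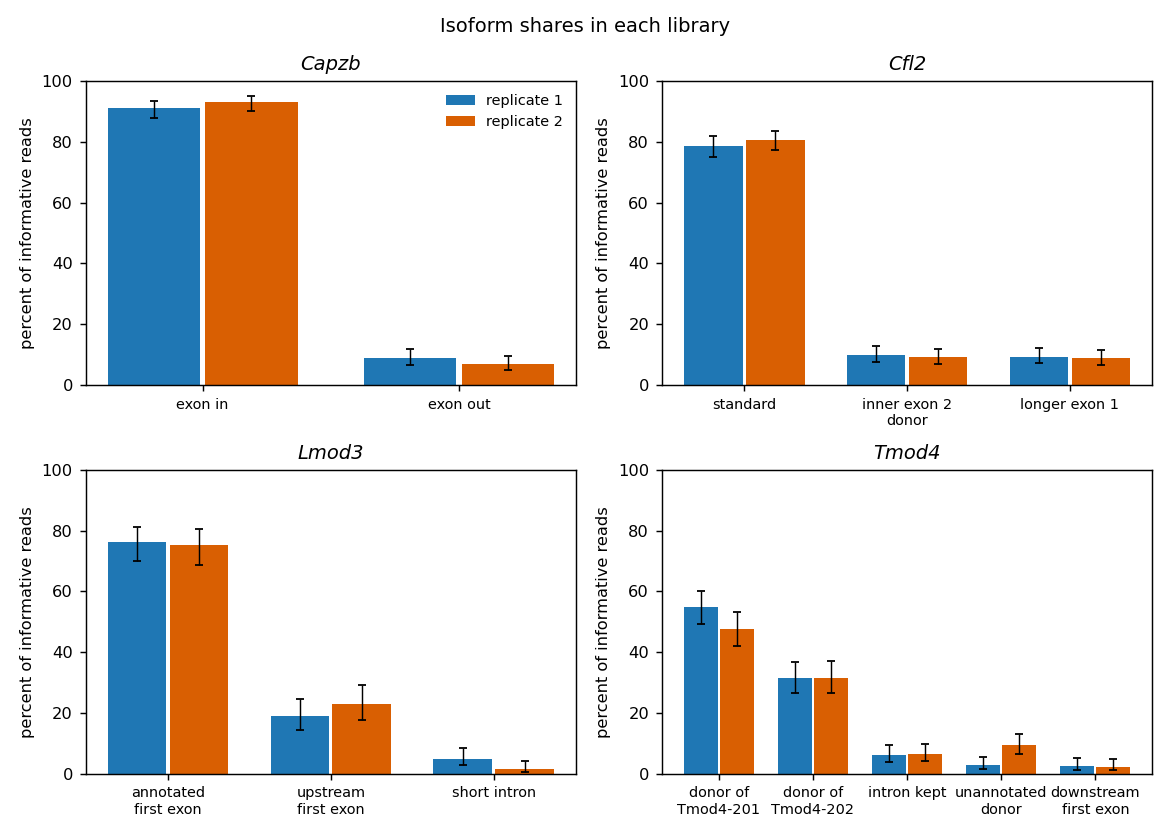
Percent of informative reads with each form of Capzb, Cfl2, Lmod3 and Tmod4 in replicate 1 (blue) and replicate 2 (orange), with 95% Wilson intervals. The Capzb exon was in 91.1% and 93.1% of reads, and of the forms drawn only the unannotated donor of Tmod4 had intervals that did not overlap between the libraries.

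Gsn and Bag3 were the barbed end genes past the threshold. The 11 tested in this list include Capza1, Capza2 and Capzb. Of the 11, 1 was higher in replicate 2, against 4.25% of all tested genes, and 1 lower, against 3.56%. The lower gene was Gsn, gelsolin, which severs filaments and caps barbed ends, with 7984 and 5063 reads and a fold of 0.629 (0.607 to 0.652, adjusted p = 3.49e-148, Fisher's exact test). The higher was Bag3, a co-chaperone that binds CapZ at the Z-disc, with 205 and 293 reads and a fold of 1.42 (1.19 to 1.69, adjusted p = 0.00299, Fisher's exact test). Both calls ended under the assumed dispersion of 0.01 in edgeR (adjusted p = 0.0611 and 0.490), and that of Bag3 also with annotated transcripts alone (adjusted p = 0.0514). Twf2, a twinfilin that binds CapZ, had 114 and 155 reads, and Mtpn, myotrophin, which keeps CapZ off filament ends, had 17 and 26. Neither passed (adjusted p = 0.144 and 0.602). The marker lists above moved between the same libraries, and their part in the Gsn and Bag3 values was not tested.

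In the turnover group, Cfl2 and Cap2 outweighed their general relatives. Cfl2 (ENSMUSG00000062929.8, chr12:54858809-54862877, minus strand), muscle cofilin, whose loss causes nemaline myopathy, had 575 and 588 reads, or 426 and 432 CPM (429 ± 4.41, SD, n = 2), a fold of 1.01 (0.904 to 1.14). Cfl1 (ENSMUSG00000056201.8, chr19:5490455-5495201, plus strand), the cofilin of most other cells, had 65 and 46 reads, or 48.2 and 33.8 CPM (41.0 ± 10.1, SD, n = 2), a fold of 0.702 (0.482 to 1.02). Adjusted p was 0.981 and 0.337 by Fisher's exact test. Cfl2 held 89.8% (87.3 to 92.0) and 92.7% (90.5 to 94.5) of cofilin reads. That was 8.85 and 12.8 times the reads of Cfl1, or 7.08 and 10.2 times per kilobase.

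The cofilin coding sequences are both 501 bases with the stop codon and match at 71.5% of positions. The first 60 bases are shown with differing bases in capitals, since they hold the place where Cfl2 is spliced in more than 1 way.
Cfl1: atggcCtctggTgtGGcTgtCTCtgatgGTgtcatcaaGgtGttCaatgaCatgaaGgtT
Cfl2: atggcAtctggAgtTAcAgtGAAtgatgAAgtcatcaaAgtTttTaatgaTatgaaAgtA
They differ at 16 of these 60 bases. Cfl1 has 3 near-identical copies in the annotation, each with 0 reads in both libraries.

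Cfl2 was read in 1 main and 2 lesser forms at overlapping shares in both animals. Among reads that show both of the first 2 introns, the standard form of Cfl2-201 had 437 of 555 in replicate 1 and 451 of 559 in replicate 2, or 78.7% (75.1 to 81.9) and 80.7% (77.2 to 83.7). The form of Cfl2-203 uses a donor inside exon 2, after coding base 57, and had 55 and 51 reads, or 9.91% (7.69 to 12.7) and 9.12% (7.01 to 11.8). It leaves out 254 bases of exon 2. The site is shown within exon 2, 15 bases on each side, with the GT that follows the splice in capitals; its first 15 bases end at base 57 of the sequence above.
Cfl2-203 donor, chr12:54861765-54861794, minus strand: tttaatgatatgaaaGTaagaaaatcttct
A reading frame started at the Cfl2-201 start codon runs for 21 codons in Cfl2-203, compared with 166 in Cfl2-201, and the annotation calls Cfl2-203 a processed transcript. Cfl2-206, annotated as subject to nonsense-mediated decay, uses another inner donor, leaves out 143 bases and is open for 58 codons. It had 7 and 5 reads.

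The other lesser form lengthens exon 1 by 333 bases, to a donor at 54862411, and was seen in 52 and 49 reads, or 9.37% (7.22 to 12.1) and 8.77% (6.69 to 11.4). Exon 1 of Cfl2-201 ends with the 3 bases of the start codon, so the added bases fall between that codon and the rest of the coding sequence. The longer exon's donor is annotated in Cfl2-202 and Cfl2-204, but no annotated transcript combines it with the other exons of these reads. The inner exon 2 donor and the longer exon 1 occurred together in 1 read per library. Neither choice passed the test between the libraries (adjusted p = 1.00 for each, Fisher's exact test; differences of -1.21 and -0.620 percentage points). In all, 76.0% (72.3 to 79.3) and 76.7% (73.1 to 79.9) of all Cfl2 reads kept the coding chain of Cfl2-201, the lowest mean share among the main transcripts of the 10 genes.

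No read of Cfl1 had a new combination of annotated splice sites or an unannotated site, 0 of 65 and 0 of 46. Cfl1-202 held 59 and 35 reads, or 90.8% (81.3 to 95.7) and 76.1% (62.1 to 86.1). Next came unspliced models classed as genomic and counted together, with 4 and 10 reads, of which 1 model spanned 451 bases. The share of Cfl1-202 had an unadjusted p of 0.0587 and an adjusted p of 0.620 (Fisher's exact test).

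**Figure D4:**
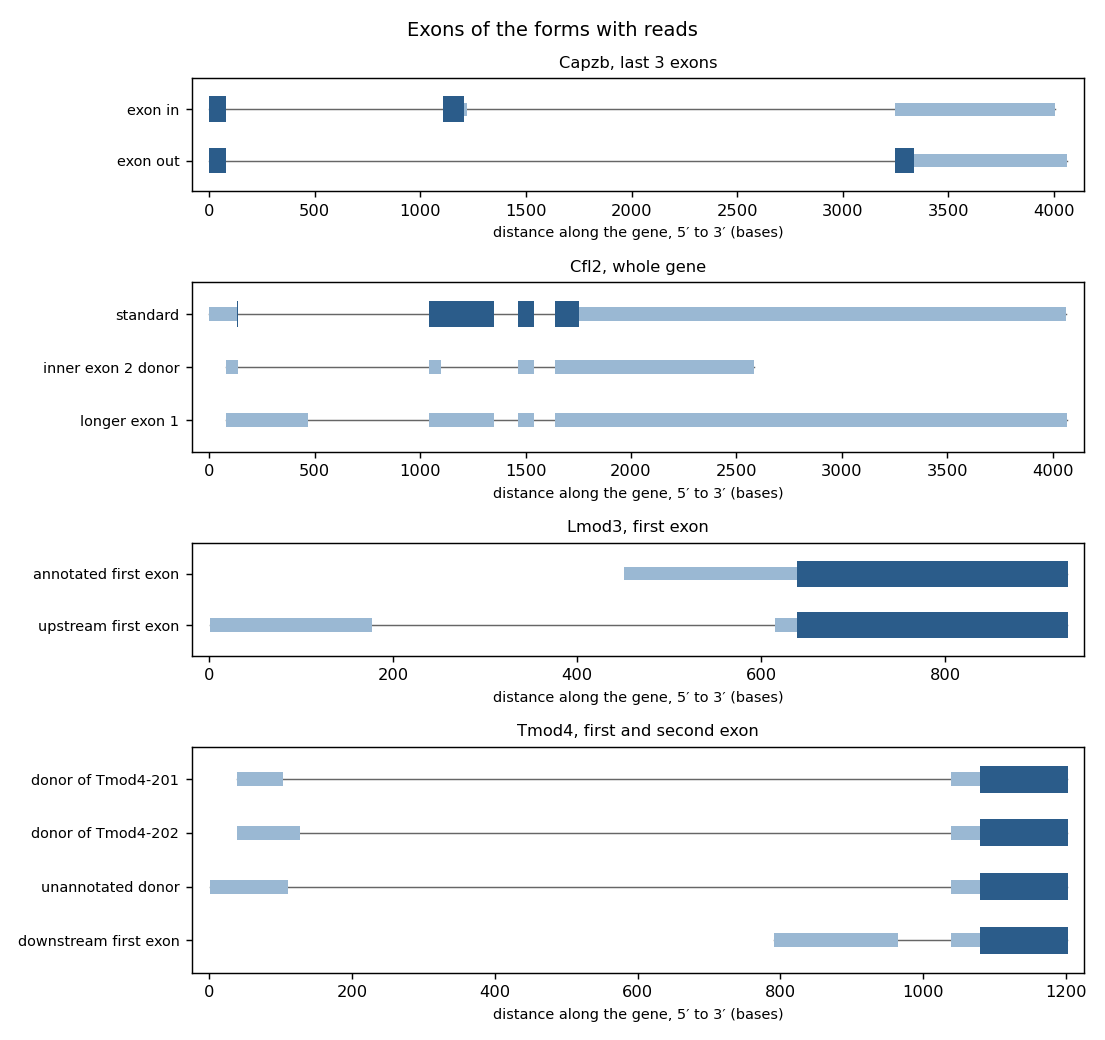
Exons of the forms with reads, drawn to scale in bases from 5′ to 3′, with introns as lines, exons in light blue and annotated coding parts in dark blue (none is drawn for the lesser Cfl2 forms). The upper panel shows the Capzb exon of 113 bases, the Cfl2 panel the 254 bases left out of exon 2 and the 333 bases added to exon 1, and the lower panels the starts of Lmod3 and Tmod4, whose forms share the same coding exon.

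Cap2 (ENSMUSG00000021373.16, chr13:46501848-46650281, plus strand), the cyclase-associated protein of striated muscle, had 134 and 167 reads, or 99.3 and 123 CPM (111 ± 16.6, SD, n = 2). Replicate 2 was the higher, at a fold of 1.24 (0.986 to 1.55, adjusted p = 0.345 by Fisher's exact test). Cap2-201 held 79.9% and 82.0% of its reads. Most of the rest, 18.7% and 14.4%, were incomplete matches. Its general relative Cap1 had 11 and 7 reads, so that Cap2 held 92.4% (86.9 to 95.7) and 96.0% (91.9 to 98.0) of the pair.

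Of the 13 tested genes of the cofilin cycle, 1 was higher and 1 lower in replicate 2, against 4.25% and 3.56% of all tested genes. Tesk1, a kinase that inactivates cofilin by phosphorylation, had 82 and 137 reads, a fold of 1.66 (1.26 to 2.18, adjusted p = 0.00595 by Fisher's exact test). Pfn2, a profilin, which binds monomeric actin, had 329 and 251 reads, a fold of 0.757 (0.642 to 0.892, adjusted p = 0.0160 by Fisher's exact test). Neither call was kept by edgeR under that assumed dispersion (adjusted p = 0.273 and 0.668). The part of the marker lists in the Tesk1, Pfn2 and Klhl41 values was not tested either. Pfn1, the general profilin, had 170 and 146 reads, and Wdr1, which helps cofilin take filaments apart, 184 and 194. Among formins, which nucleate filaments, 0 of 4 tested genes passed, against 7.82% of all tested genes. Fhod3, the formin of sarcomeres, had 37 and 54 reads, Diaph1 10 and 10, Daam1 8 and 6, and Daam2 7 and 7.

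Reads of the 10 genes matched the annotation more closely than reads of all annotated genes did. Together, 87.9% (86.6 to 89.0) and 87.0% (85.7 to 88.3) of their reads lay on annotated transcripts, against 65.9% and 65.3% for all genes. That difference is a description with no test, since abundant genes weigh on the sum. Capza2 had the highest mean share, 97.2% and 96.4%, and Lmod3 the lowest, 71.0% and 72.2%. Unannotated splice sites took 22.4% and 23.9% of Lmod3 reads and 8.97% and 15.3% of Tmod4 reads, against 18.5% and 17.9% over all annotated genes, so Tmod4 lay below the whole table and Lmod3 above it. New combinations of annotated sites took 10.4% and 9.86% of Cfl2 reads, against 5.59% and 5.22% over all genes. The annotated share of 0 of the 10 genes passed the test between the libraries, against 55 of 5025 genes in the table (1.09%, Fisher's exact test); at an unadjusted p under 0.05 there was 1, Tmod4, and 374 of all (7.44%).

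**Figure D5:**
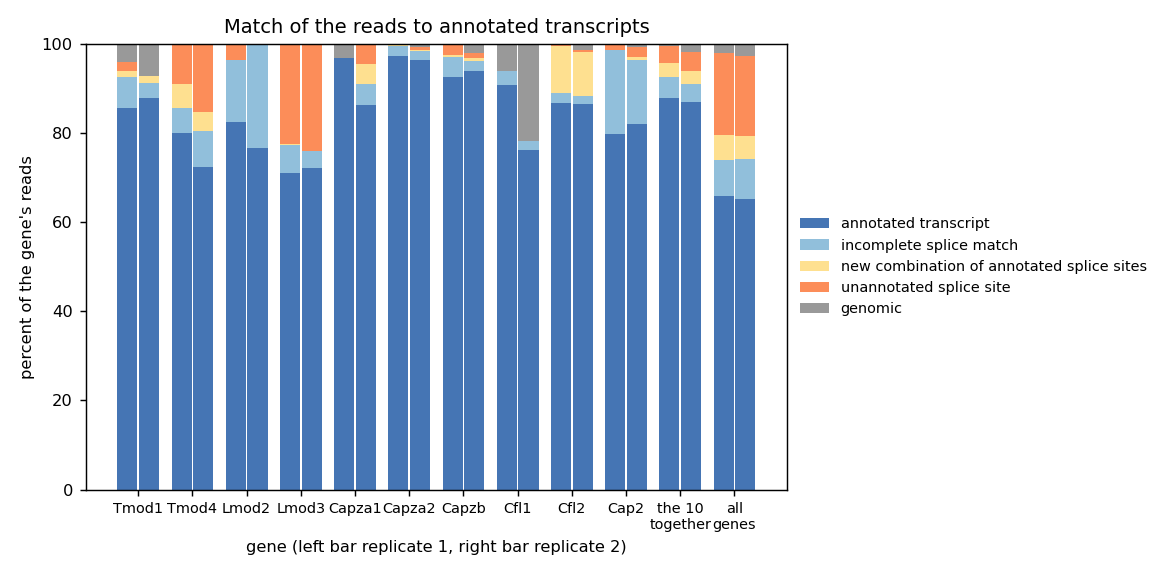
Percent of each gene's reads by how their model matches the annotation, for the 10 genes, their sum and all annotated genes, with replicate 1 on the left and replicate 2 on the right of each pair. Among the 10 genes, Lmod3 and Tmod4 had the most reads with unannotated splice sites and Cfl2 the most with new combinations of annotated sites, and the 10 genes together had 87.9% and 87.0% of reads on annotated transcripts.

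Some of these genes overlap genes on the other strand, and reads were kept apart by the strand of each model. Tstd2, opposite Tmod1, had 17 and 22 reads, St7l, opposite Capza1, 31 and 34, and Snx32, opposite Cfl1, 9 and 12. For Capza1 the opposite gene thus had 31 reads to its own 32 in replicate 1 and 34 to 22 in replicate 2, and whether any read was given to the wrong strand was not tested. Unannotated models opposite Cap2 had 9 and 21 reads.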

How the data were processed

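Long reads of 2 gastrocnemius libraries were analysed from transcript tables. The deposited values are raw counts of reads per transcript model, with no normalization by the authors; the deposited annotation names TALON, a tool that sorts long reads into known and new transcript models, as its source. The build is mm10 and the annotation GENCODE M21, per the file headers and notes. For the aligner and read filters, a name is not given in the sources used here.

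Counts were summed per annotated gene (spike-ins left out of tests, kept in totals), and genes with at least 10 reads summed were tested. Shares needed at least 20 reads in each library. Tests were two-sided Fisher's exact tests with Benjamini-Hochberg adjustment at 0.05 over the whole table (scipy 1.17.1). Folds are ratios of CPM; intervals are 95% Wilson intervals, and 3 counts stand for a count of 0. Exon and splice-site counts came from deposited exon coordinates, sequences from GENCODE M21 transcripts, and near-identical copies from blastn 2.17.0. Alternatives used edgeR 4.0.16 and DESeq2 1.42.0. Methods were tested on simulated data that held counting error alone, with no variation between animals. Because there is 1 library per animal and 1 group, p-values measure only the difference between these libraries, which may be technical.

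The genes and lists were chosen with earlier results of these data known, and the donor choice test was chosen after seeing the data. Named were all 10 genes, up to 4 other genes with most reads per list and those past the threshold, transcripts with at least 10% of a gene's pooled reads, and annotated transcripts of Capzb and Cfl2 with at least 10 reads. The 5 pathway lists and 9 marker lists were written by hand.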

Additional observations from a re-analysis of the deposited data

How the results depend on the processing

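Of 80 values of the 10 genes under 8 alternatives, 74 kept their direction and their side of the threshold. Tmod1 passed it, lower in replicate 2, in the 2 settings named with it, so 1 of the 10 genes was called there, against 14.1% and 7.57% of all tested genes. Ratios near 0 changed sign: the log2 ratio of Capzb was 0.01 with annotated transcripts alone and 0.00 with median-of-ratios size factors, that of Tmod4 was 0.00 with those size factors, and that of Cfl2 was -0.01 without mitochondrial and spike-in reads. Genes called over the whole table numbered 173 (83 higher, 90 lower) with a dispersion of 0.01, and 231 were higher with annotated transcripts alone. With spliced models alone, 36 dominant shares and 24 annotated shares were called, and the differences of Lmod2 and Cfl1 turned to 0.0439 and 0.501 percentage points in both. Called exons numbered 1 with annotated transcripts alone and 23 without unannotated splice sites, and called donors 19 without incomplete splice matches, an alternative chosen after seeing the data. The longer Cfl2 exon 1 falls to 0% with annotated transcripts alone, since the annotated transcripts with its donor, Cfl2-202 and Cfl2-204, had no reads. Leaving out either library leaves the other's own value: the Capzb inclusion ranged from 91.1% to 93.1%, the inner Cfl2 donor from 9.11% to 10.3% and the longer exon from 9.54% to 10.2%. No paired analysis was possible because both libraries belong to 1 group. At these depths Capza1, Lmod2 and Cfl1, with the fewest reads, had fold intervals as wide as 2.92 times from lower to upper bound.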
